A study of Mus musculus with 8 samples.

Results

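The complement system was followed through 30 of its genes in mouse aortic vascular smooth muscle cells, out of 24704 named genes on the arrays. The members were 32 listed mouse genes for components, regulators and receptors of the cascade. They were matched by gene symbol, and 30 of them were named by the probe annotation used here. C3 and Cfd were not analysed here, because genes were named from that annotation alone. Total RNA was hybridised to 8 single-colour Affymetrix arrays, 4 titled AdPl and labelled control, and 4 titled AdN5 and labelled as overexpressing NFAT5, a transcription factor of the response to hypertonic stress. Both groups had adenovirus for 24 h and then cholesterol at 10 µg/ml for 72 h, so as labelled they differ in the virus alone, and cells without virus or without cholesterol were not analysed here. The labels give neither the promoter that drives the viral insert nor the strain and age of the mice, and they do not say whether replicates are separate cultures. The p-values therefore set the group difference only against the scatter of these samples, and that scatter may be technical.

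Complement is a cascade of secreted proteins that tag surfaces and open pores in membranes. The classical pathway starts when C1q binds a surface and its partner proteases C1r and C1s cleave C4 and C2; lectins start it through the MASP proteases, and the alternative pathway amplifies it through factor B, factor D and properdin. All routes meet at C3, after which C5 to C9 assemble into the membrane attack complex, while regulators on host cells and in plasma hold the cascade back and receptors for the fragments C3a and C5a signal to leukocytes. The liver makes most plasma complement, macrophages make C1q and properdin, and mesenchymal cells of the vessel wall are known to make several of the other components.

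Values are deposited log2 RMA levels, and fold changes are AdN5 over AdPl on that scale. In limma, 192 genes (0.777% of those tested) passed an adjusted p of 0.05 by Benjamini-Hochberg, the threshold for a call here. Nfat5 itself was not raised on the arrays labelled as overexpressing it (6.97 ± 0.072 against 7.16 ± 0.089, SD, n = 4; fold change -0.19, adjusted p = 0.360 in limma, exact permutation p = 0.0571), which goes against the label, so every direction here is drawn from the array titles. Whether the Nfat5 probes read the viral insert was not tested, since no probe positions were used. The smooth muscle genes Acta2 (12.02 to 12.06 on the AdPl arrays, 11.67 to 11.81 on the AdN5 arrays) and Tagln were high. However, 2 of 9 smooth muscle markers, Myocd and Des, lay below 3.76, the level of an array's median probe set. Acta2 was lower on all AdN5 arrays (-0.30, adjusted p = 0.113 in limma), and Cnn1 was higher on all (0.33, adjusted p = 0.296). The other 7 overlapped between groups, and none of the 9 passed. On the second principal component AdPl replicate 3 (14.2) and AdN5 replicate 4 (24.7) lay at one end and AdN5 replicate 3 (-19.5) at the other. In RNA from a whole culture, fewer cells of a type and less RNA per cell cannot be told apart.

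Of the 30 complement genes 1 fell, 1 rose and 28 did not pass. C7, a subunit of the membrane attack complex, fell to 0.476 of its AdPl level, and C3ar1, the receptor for the fragment C3a, rose 1.65-fold. Among all genes 0.413% were called lower and 0.364% higher. The median fold change of the members was -0.016, against 0.0042 over all genes, and 12 members were above 0 and 18 below. An unadjusted p under 0.05 was reached by 11 members (5 higher and 6 lower), that is 36.7% against 12.5% of all genes. On 3 members (10%) all AdN5 arrays lay above all AdPl arrays, against 4.22% of all genes, and on 5 members (16.7%) they lay below, against 4.56%. These shares are a description.

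**Figure D1:**
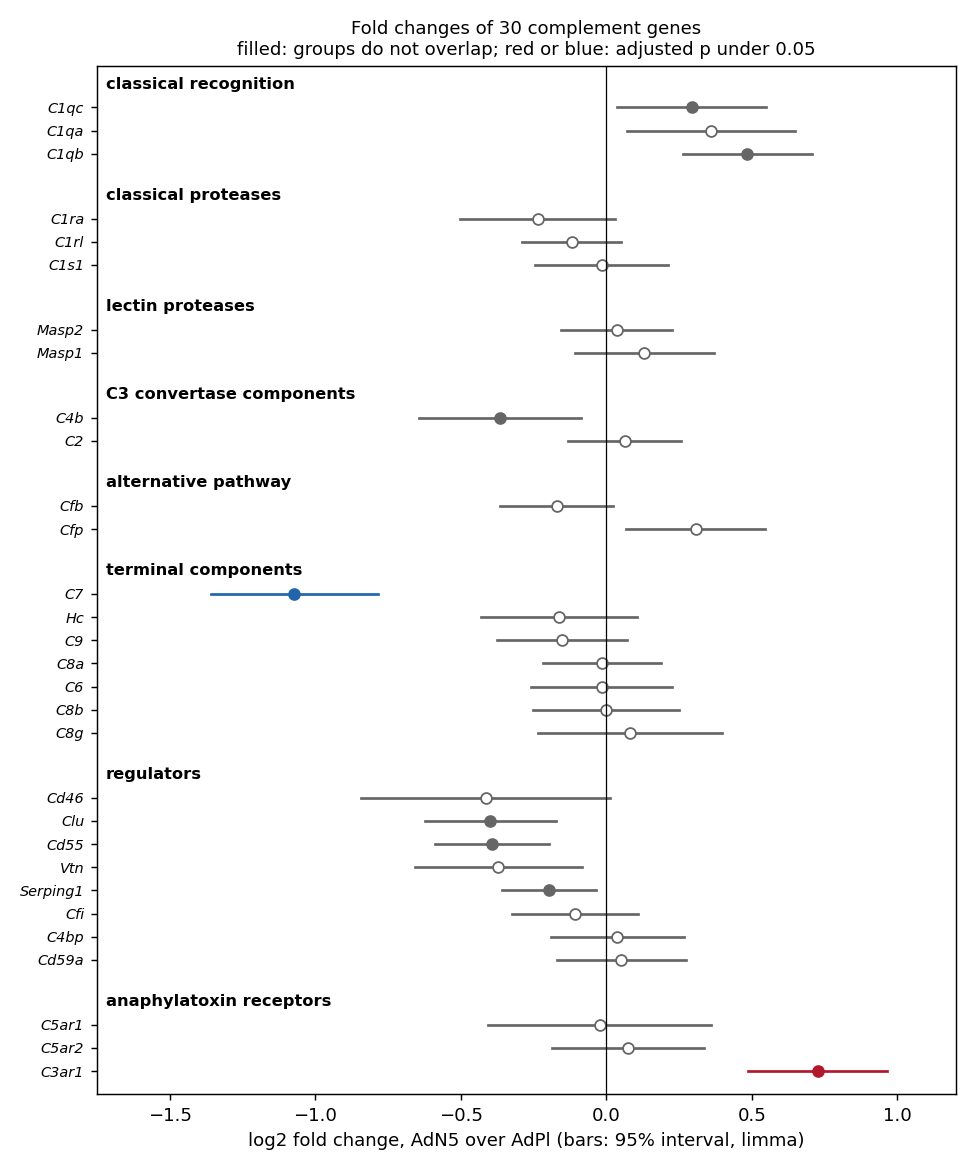
Log2 fold change (AdN5 over AdPl, horizontal axis) with its 95% interval from limma for 30 complement genes, grouped by role. Filled points are the 8 genes whose groups did not overlap, blue is C7 (-1.07) and red is C3ar1 (0.73), the members that passed an adjusted p under 0.05.

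Members differed in how close they were to the floor of the arrays. In both groups 11 members lay below the array median, among them all 7 terminal components, the regulators Cd46, Cfi and Vtn, and the receptor C5ar2. RMA compresses differences of such dim genes, and the values carry no detection call. The other 19 members lay above that median in both groups. The spread within a group was smallest for Clu on the AdPl arrays (SD 0.013) and largest for Cd46 on the AdN5 arrays (SD 0.37).

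**Figure D2:**
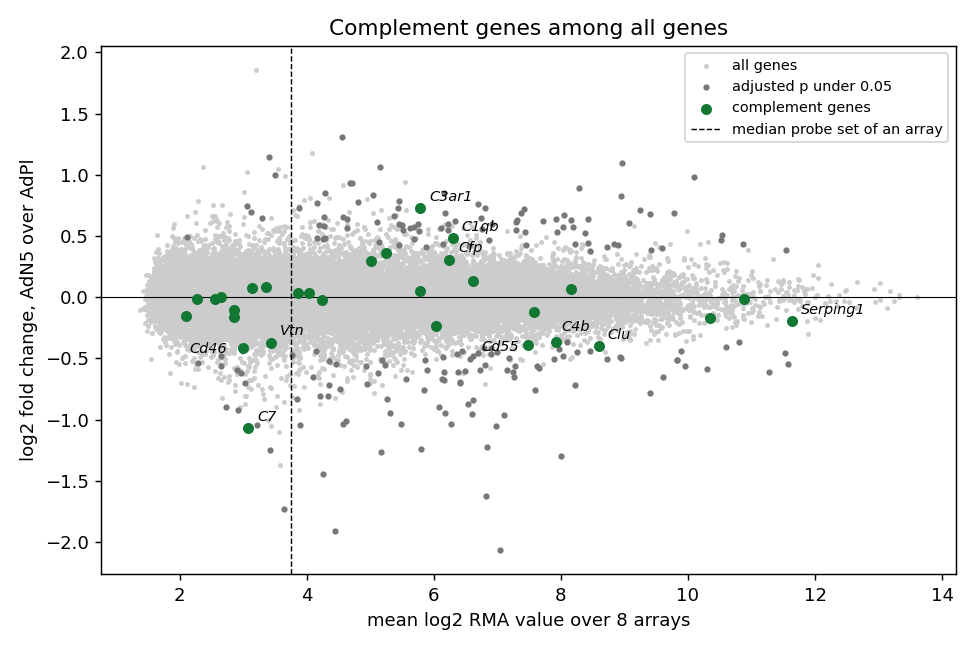
Log2 fold change (vertical axis) against the mean log2 RMA value over 8 arrays (horizontal axis) for all 24704 genes in grey, called genes in dark grey and 30 complement genes in green; the dashed line is the median probe set of an array, 3.76. C7 lies left of that line at -1.07, while C3ar1, C1qb, Clu, Cd55 and C4b lie to its right.

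Terminal components form the pore, and C7 was the called member among them. C7 is the subunit that first anchors the growing complex to the lipid bilayer. It read 3.74, 3.49, 3.34 and 3.90 on AdPl replicates 1 to 4 and 2.37, 2.64, 2.57 and 2.60 on AdN5 replicates 1 to 4. The lowest AdPl array stood well above the highest AdN5 array, and AdN5 replicate 1 was the lowest of all. The means were 3.62 ± 0.25 and 2.54 ± 0.12 (SD, n = 4), a fold change of -1.07 ± 0.13 (SE; 95% interval -1.36 to -0.79, adjusted p = 0.00802 in limma). Leaving out any single array kept the call of C7 in 8 of 8 cases (adjusted p 0.0111 to 0.0372), as did a fit without both AdPl replicate 3 and AdN5 replicate 4 (-1.18, adjusted p = 0.0400).

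The other terminal components did not pass, and all were dim, as C7 was. Hc, which encodes C5, the source of the chemoattractant C5a, had means of 2.93 ± 0.19 and 2.77 ± 0.16 in the AdPl and AdN5 groups (fold change -0.16, 95% interval -0.43 to 0.11). C6, the partner that binds C5b before C7 joins, was at 2.28 ± 0.21 and 2.27 ± 0.071, a fold change of -0.016 with an interval from -0.26 to 0.23. In the RefSeq gene table of GRCm38.p6, C6 and C7 are separated by 1 protein-coding gene. C8a, a chain of C8, was at 2.57 ± 0.026 and 2.55 ± 0.16 (fold change -0.016, -0.22 to 0.19), and the chain C8b was at 2.65 ± 0.18 and 2.65 ± 0.15 (-0.0010, -0.25 to 0.25). The third chain, C8g, had the highest fold change of the terminal genes and read 3.34, 3.06, 3.20 and 3.68 on the AdPl arrays and 3.37, 3.34, 3.24 and 3.65 on the AdN5 arrays. Its groups overlapped, with replicate 4 the highest in each (0.082, -0.23 to 0.40). C9, which polymerises to line the pore, was at 2.18 ± 0.072 and 2.03 ± 0.18 (-0.15, -0.38 to 0.072). Changes of the size seen for C7 lay outside the intervals of all 6, although at these levels a compressed change would not be seen.

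Receptors of the anaphylatoxins, the small fragments that recruit leukocytes, are carried mainly by myeloid cells. C3ar1 read 5.37, 5.45, 5.42 and 5.45 on AdPl replicates 1 to 4. On AdN5 replicates 1 to 4 it read 5.86, 6.26, 6.35 and 6.13. The AdPl arrays were nearly equal and all AdN5 arrays were above them, replicate 1 by the least. The means were 5.42 ± 0.042 and 6.15 ± 0.21 (SD, n = 4), a fold change of 0.73 ± 0.11 (SE; 95% interval 0.49 to 0.97, adjusted p = 0.0194 in limma). This call depended on which arrays were in the fit. It was kept without AdN5 replicate 1 (adjusted p = 0.00991) and lost without any of AdPl replicates 1 (0.0735), 2 (0.0637), 3 (0.0601) and 4 (0.0675) or AdN5 replicates 2 (0.0614), 3 (0.0561) and 4 (0.0523), with fold changes from 0.66 to 0.82. It was also lost without both AdPl replicate 3 and AdN5 replicate 4 (0.73, adjusted p = 0.135).

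The receptors of C5a did not pass. C5ar1, the signalling receptor, read 4.29, 3.97, 4.75 and 3.98 on the AdPl arrays and 4.05, 4.15, 4.26 and 4.43 on the AdN5 arrays. The groups overlapped throughout, and AdPl replicate 3 was the highest array. The fold change was -0.022 (95% interval -0.41 to 0.36), an interval wide enough to hold a moderate change either way. C5ar2, a second C5a receptor that does not couple to G proteins, was at 0.074 (-0.19 to 0.34), from 3.11 ± 0.10 to 3.18 ± 0.23.

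Printed next are the 250 bases before the transcript start of C7 and C3ar1, the called members, from RefSeq on GRCm38.p6. Capitals mark the letters TGGAAA on either strand, the core shared by the tonicity element that NFAT5 binds and by sites of other NFAT proteins. The C7 window is chr15:5063774-5064023 on the minus strand and holds 2 matches, starting 225 and 143 bases before the start. The C3ar1 window is chr6:122856158-122856407 on the minus strand and holds 1 match, starting 15 bases before the start.
C7: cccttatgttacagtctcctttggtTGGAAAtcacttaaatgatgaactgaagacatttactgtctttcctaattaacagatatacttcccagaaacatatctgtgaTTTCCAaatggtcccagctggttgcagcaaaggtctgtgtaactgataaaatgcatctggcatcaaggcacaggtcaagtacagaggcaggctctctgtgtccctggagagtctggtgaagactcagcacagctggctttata
C3ar1: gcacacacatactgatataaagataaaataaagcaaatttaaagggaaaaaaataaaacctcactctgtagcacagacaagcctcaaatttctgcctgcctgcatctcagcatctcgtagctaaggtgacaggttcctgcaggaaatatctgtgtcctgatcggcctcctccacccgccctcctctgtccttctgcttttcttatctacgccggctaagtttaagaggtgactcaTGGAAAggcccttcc
The same letters stand in 18.6% of the 32851 promoter windows of this length in the table. Of the 30 members 22 had at least 1 window, with 25 windows in all, of which 10 (40%) held a match, in 10 members: C1qc, C1ra, C1rl, C3ar1, C5ar1, C6, C7, Cd46, Cd59a and Vtn. Fold changes of these 10 members ran from -1.07 for C7 to 0.73 for C3ar1. A match is a string of letters and does not show that a factor binds.

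**Figure D3:**
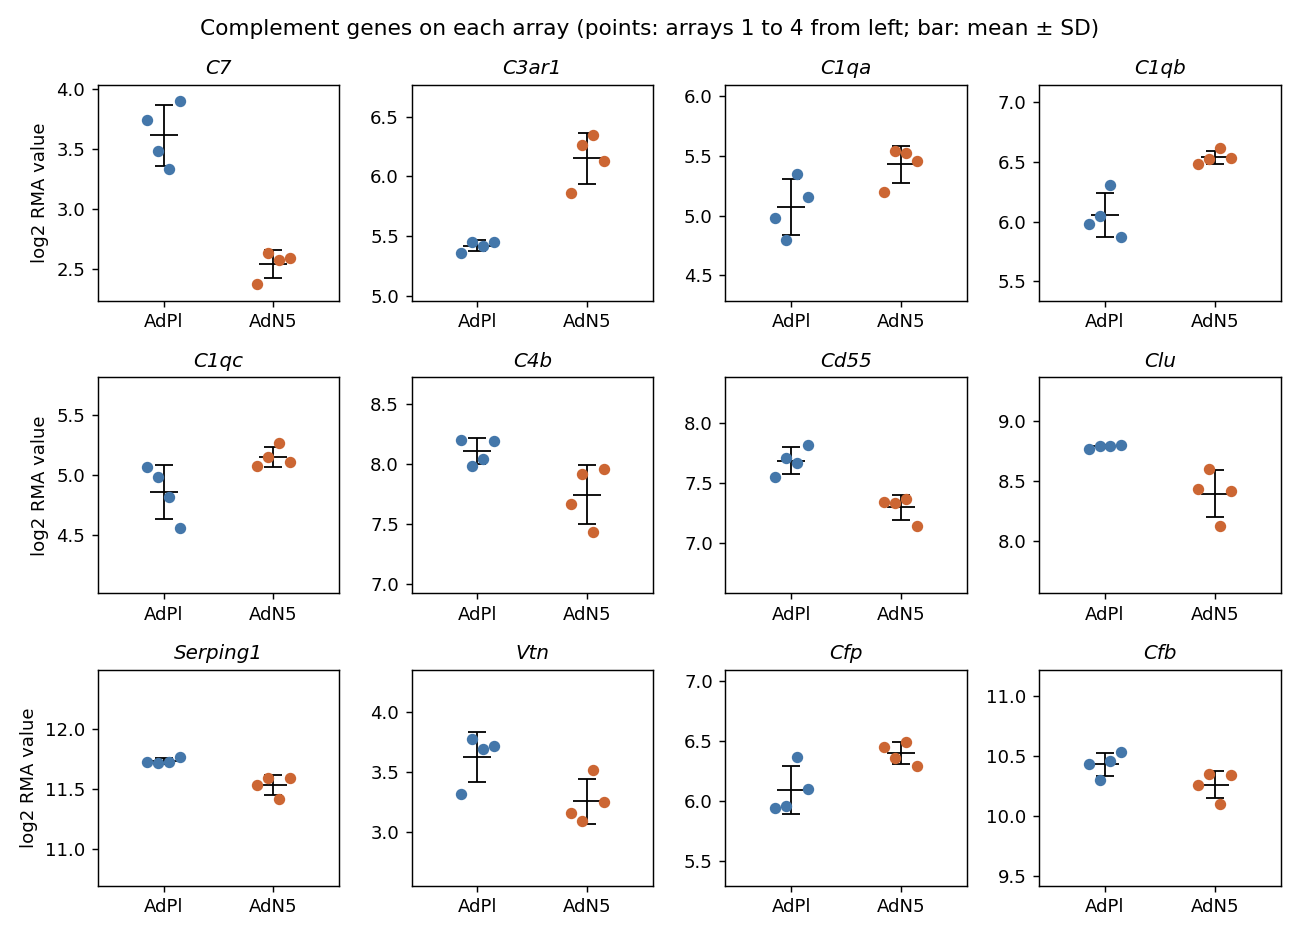
Log2 RMA value (vertical axis) of 12 complement genes on each array, with AdPl in blue and AdN5 in orange, points from left to right for replicates 1 to 4, and bars for the mean ± SD (n = 4). The groups are apart for C7, C3ar1, C1qb, C1qc, C4b, Cd55, Clu and Serping1, by margins that differ widely, and they overlap for C1qa, Vtn, Cfp and Cfb.

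C1q, the recognition molecule of the classical pathway, is built from the chains of C1qa, C1qb and C1qc, which lie next to each other in the RefSeq gene table with 0 protein-coding genes between them. All 3 chains had higher means on the AdN5 arrays, and none passed. C1qb read 5.98, 6.05, 6.31 and 5.87 on the AdPl arrays and 6.48, 6.53, 6.61 and 6.53 on the AdN5 arrays. The groups did not overlap, and the AdN5 arrays were the more even. Its fold change was 0.48 ± 0.099 (SE; 95% interval 0.26 to 0.71, adjusted p = 0.0712). C1qb passed when dim genes below the lower quartile were dropped (adjusted p = 0.0488) or those below the median (0.0225). It also passed in a robust fit with a trend in the variance (0.00785) and without AdPl replicate 3 (0.0372). These filters called 274 and 497 genes in all and the robust fit 781, against 192 in the main fit. With each array left out in turn C1qb passed in 1 of 8 fits, with adjusted p up to 0.195 in limma.

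C1qa read 4.98, 4.79, 5.34 and 5.15 on the AdPl arrays and 5.20, 5.54, 5.52 and 5.45 on the AdN5 arrays. AdN5 replicate 1 lay below AdPl replicate 3, so the groups overlapped, and the fold change was 0.36 (95% interval 0.070 to 0.65, adjusted p = 0.281). For C1qc the values were 5.07, 4.99, 4.82 and 4.56 against 5.08, 5.15, 5.27 and 5.11. Its groups were separated by less than the spread within either of them, with a fold change of 0.29 (0.038 to 0.55, adjusted p = 0.326).

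Macrophage markers had higher means in the AdN5 group, as did C3ar1 and the C1q chains. All 12 measured macrophage markers had higher means on the AdN5 arrays, by 0.11 to 0.68 with a median of 0.28. Among all 24704 genes 12608 had higher means. Of this list, which was chosen with earlier results known, 4 markers rose. They were Adgre1, a surface receptor of macrophages (0.68), Ctss (0.61), Laptm5 (0.53) and Cd68 (0.52). That is 33.3%, against 0.364% of all genes called higher. The list mean ran from 5.57 to 5.75 on the AdPl arrays and from 5.96 to 6.10 on the AdN5 arrays. The values carry no detection call, and 3 of 12 (Ptprc, Aif1 and Cd163) were under the array median in the AdPl group. In 5 of 12 the groups overlapped, and in 7 (58.3%) all AdN5 arrays lay above all AdPl arrays, against 4.22% of all genes. Whether macrophages were present in the culture was not tested, nor was their part in the values of C3ar1, C1q and properdin.

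Of the proteases that C1q activates and their relative C1rl, 0 of 3 passed. C1ra, the first protease to be cleaved, read 6.07, 6.17, 6.16 and 6.19 on the AdPl arrays and 5.67, 5.74, 6.15 and 6.10 on the AdN5 arrays. AdN5 replicates 1 and 2 were low and the other two lay close to the AdPl arrays, with a fold change of -0.24 (95% interval -0.50 to 0.031). C1s1, the protease that cuts C4 and C2, read 10.95, 11.04, 10.63 and 10.94 against 10.76, 10.88, 10.94 and 10.92. AdPl replicate 3 was its lowest array, and the fold change was -0.016 (-0.24 to 0.21). C1rl, a C1r-like protease, was at 7.63 ± 0.078 and 7.51 ± 0.070 (-0.12, -0.29 to 0.052). C1ra and C1s1 have close copies in the mouse, C1rb (-0.19) and C1s2 (-0.51), and the probes were not checked for signal shared between copies.

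MASP proteases of the lectin pathway both overlapped between groups. Masp1, which also encodes a protease that matures factor D, read 6.37, 6.64, 6.75 and 6.45 on the AdPl arrays and 6.50, 6.72, 6.80 and 6.71 on the AdN5 arrays, a fold change of 0.13 (95% interval -0.11 to 0.37). Masp2, which cleaves C4 and C2 after lectin binding, was nearer the array median and read 3.98, 3.83, 3.82 and 3.72 against 3.87, 3.90, 3.75 and 3.98. Its fold change was 0.036 (-0.15 to 0.23).

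C4b and C2 make up the C3 convertase of the classical and lectin pathways. C4b, which encodes C4, read 8.20, 7.99, 8.05 and 8.20 on the AdPl arrays and 7.67, 7.92, 7.43 and 7.96 on the AdN5 arrays. All AdN5 arrays were below the AdPl arrays, replicate 3 by the most and replicate 4 by very little. The fold change was -0.36 ± 0.12 (SE; 95% interval -0.64 to -0.087, adjusted p = 0.260). C2, the protease of this convertase, read 8.22, 8.01, 8.06 and 8.23 against 8.09, 8.19, 8.16 and 8.33. Its groups overlapped, with a fold change of 0.063 (-0.13 to 0.26). C4a, a copy of C4b in the mouse, was dim at 2.78 and 2.84.

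Alternative pathway genes were split in sign, and neither passed. Cfp, encoding properdin, which stabilises the alternative convertase, read 5.94, 5.96, 6.37 and 6.09 on the AdPl arrays and 6.45, 6.36, 6.49 and 6.29 on the AdN5 arrays. AdPl replicate 3 reached into the AdN5 range, and the fold change was 0.31 ± 0.11 (SE; 95% interval 0.069 to 0.55, adjusted p = 0.267). Cfb, encoding factor B, the protease of that convertase, read 10.44, 10.30, 10.46 and 10.53 against 10.26, 10.35, 10.10 and 10.34. Its groups overlapped at AdPl replicate 2, and the fold change was -0.17 (-0.36 to 0.024, adjusted p = 0.472). In the RefSeq gene table Cfb and C2 are direct neighbours.

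Regulators protect host surfaces and limit the cascade in plasma, and 6 of 8 had lower means on the AdN5 arrays, without any passing. Their median fold change was -0.28. Cd55, decay-accelerating factor, which takes convertases apart on the cell surface, read 7.55, 7.71, 7.67 and 7.82 on the AdPl arrays and 7.34, 7.33, 7.36 and 7.14 on the AdN5 arrays. The groups did not overlap, and AdN5 replicate 4 was the lowest. Its fold change was -0.39 ± 0.087 (SE; 95% interval -0.59 to -0.20, adjusted p = 0.0943), and it passed when genes below the median were dropped (0.0280) and in the robust fit with a variance trend (0.00500). With each array left out in turn Cd55 passed in 0 of 8 fits (adjusted p 0.136 to 0.232 in limma). Its copy Cd55b was dim and at 0.063.

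Clu, encoding clusterin, which binds C5b-7 in plasma and keeps it from membranes, read 8.77, 8.80, 8.80 and 8.80 on the AdPl arrays. On the AdN5 arrays it read 8.43, 8.60, 8.13 and 8.42. The AdPl arrays were almost identical and all AdN5 arrays were lower, with a spread of their own that replicate 3 widened. The fold change was -0.40 ± 0.10 (SE, 95% interval -0.62 to -0.17, adjusted p = 0.137 in limma, or 0.00920 in the robust fit with a variance trend). Clu passed in 0 of 8 fits with each array left out in turn (adjusted p 0.110 to 0.275 in limma).

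Serping1, the C1 inhibitor that removes C1r and C1s from C1, read 11.72, 11.71, 11.72 and 11.76 on the AdPl arrays. The AdN5 arrays read 11.53, 11.59, 11.42 and 11.59, all below them. The fold change was small, -0.20 ± 0.072 (SE, 95% interval -0.36 to -0.036, adjusted p = 0.286 in limma, or 0.00501 in the robust fit with a variance trend). Serping1 passed in 0 of 8 fits with each array left out in turn (adjusted p 0.335 to 0.475 in limma).

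The remaining regulators overlapped between groups and did not pass. Vtn, encoding vitronectin, which like clusterin blocks insertion of the terminal complex, read 3.32, 3.78, 3.69 and 3.71 on the AdPl arrays and 3.16, 3.09, 3.52 and 3.25 on the AdN5 arrays. AdPl replicate 1 and AdN5 replicate 3 crossed, and the fold change was -0.37 (95% interval -0.66 to -0.084, adjusted p = 0.266). Cd46, a cofactor for cleavage of C3b and C4b, read 3.34, 3.08, 2.92 and 3.49 against 2.68, 2.86, 3.26 and 2.37. It varied widely within the AdN5 group, with a fold change of -0.41 (-0.84 to 0.014). Cfi, the protease that inactivates C3b and C4b, was at 2.90 ± 0.15 and 2.80 ± 0.11 (-0.11, -0.32 to 0.11). C4bp, the C4b-binding protein, was at 4.02 ± 0.12 and 4.06 ± 0.16 (0.038, -0.19 to 0.27). Cd59a, which blocks C9 from joining the pore, had the highest fold change of the regulators and read 5.73, 5.54, 5.74 and 5.99 against 5.87, 5.75, 5.80 and 5.78. The AdN5 arrays lay inside the AdPl range (0.052, -0.17 to 0.27).

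Most fibroblast or adventitial markers had lower means in the AdN5 group, as did C7, C4b, Clu and Cd55. Of 12 measured markers 9 had lower means on the AdN5 arrays, with a median of -0.14 and a range from -1.24 to 0.061. Among all 24704 genes 12096 had lower means. Of this list, which was chosen with earlier results known, 1 marker fell, Ly6c1 (-1.24). That is 8.33%, against 0.413% of all genes called lower. Ly6c1 was dim on the AdN5 arrays, at 2.15 to 3.32, under the array median. In 5 of 12 (41.7%) all AdN5 arrays lay below all AdPl arrays, against 4.56% of all genes, and in 7 the groups overlapped. Serpinf1 (-0.011), Mfap5 (0.018) and Clec3b (0.061), among those 7, hardly moved. The list mean, which includes the large fall of Ly6c1, ran from 7.48 to 7.51 on the AdPl arrays and from 7.14 to 7.30 on the AdN5 arrays. The values carry no detection call, and 1 of 12 (Tcf21) was under the array median in the AdPl group. Of the hepatocyte markers 5 of 5 were under it. Whether fibroblast-like cells were present beside smooth muscle cells was not tested, nor was their part in the values of C7 and the regulators.

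**Figure D4:**
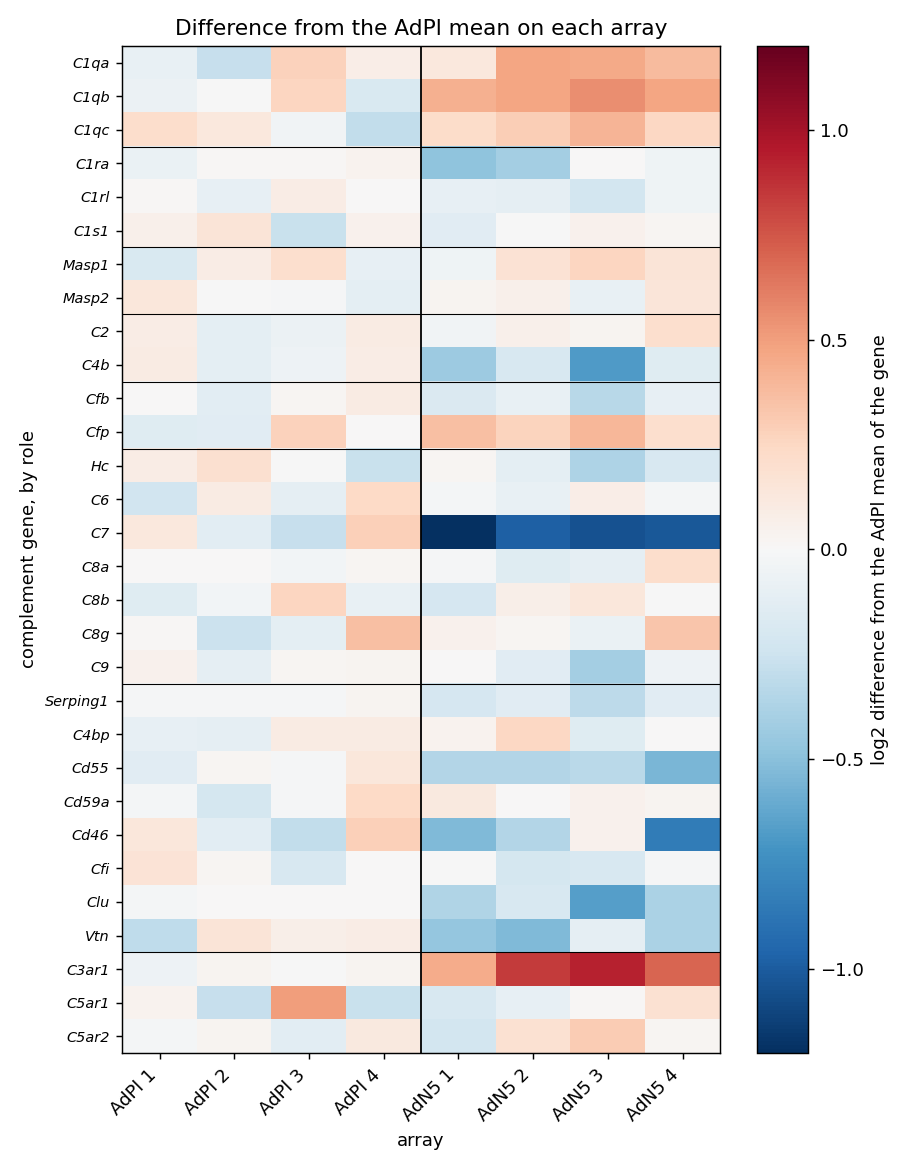
Difference of each array from the AdPl mean of the gene (colour, log2 scale), for 30 complement genes (rows, ordered by role) on 4 AdPl and 4 AdN5 arrays (columns). C7 is dark blue and C3ar1 red on all 4 AdN5 arrays, C1qb is red on all 4, and Clu and C4b are darkest on AdN5 replicate 3.

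Of 28 further complement genes 25 were measured, and none passed in limma (0 called, with 3 at an unadjusted p under 0.05; 12% against 12.5% of all genes). Their median fold change was 0.062. The highest was Itgb2, the beta chain of complement receptors 3 and 4, which read 6.13, 5.83, 6.15 and 6.16 on the AdPl arrays and 6.41, 6.61, 6.58 and 6.39 on the AdN5 arrays. Its groups did not overlap (fold change 0.43 ± 0.10, SE, adjusted p = 0.107). The lowest was C1s2, at 4.59, 4.79, 4.36 and 4.29 against 3.82, 4.18, 4.08 and 3.93. Its groups did not overlap either (-0.51 ± 0.13, SE, adjusted p = 0.136). Among the membrane regulators of this list all 5 overlapped between groups, with fold changes from -0.098 for Cr1l, the main rodent convertase regulator on cells, to 0.078. The 6 lectin recognition genes were all dim in this culture.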

How the data were processed

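The deposited values are log2 expression levels that the authors made by RMA (per the submitters' processing notes, no version stated). RMA normalises the arrays to one distribution, so a shift shared by all genes could not be seen. The sources used here give neither build nor probe positions. The table held 25428 probe sets keyed by Entrez identifier. The supplied annotation gave 1 symbol for 24705, several for 0 and none for 723, which stay unnamed. The brighter probe set was kept for a repeated symbol, leaving 24704 genes, with no filter on dim genes.

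AdN5 and AdPl arrays were compared in limma (version 3.58.1, R 4.3.3; moderated two-sided test, no covariates) on all 8 arrays, with Benjamini-Hochberg adjustment over all genes; the fit was tested on simulated data. The number of arrays limits the precision, with a median SE of 0.106 over the members. For Nfat5 the 70 possible assignments of arrays gave an exact two-sided permutation p (smallest possible 0.0286). Promoter windows and gene order came from RefSeq tables of GRCm38.p6. Figures were drawn with matplotlib 3.10.9 (Python 3.11.15).

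The members, their roles and all lists were chosen with earlier results of these data known. All measured members are given: called ones, those whose groups did not overlap and the ends of each role with array values, the rest by means or fold changes. Of further complement genes the rule names the ends; C1rb, C4a, Cd55b and Cr1l were added with their values known. Alternatives tried were a replicate block, renewed quantile normalisation, median centring, filters on dim genes, a robust fit with a variance trend, array weights, other call thresholds, every probe set as its own row, each array left out, and AdPl replicate 3 with AdN5 replicate 4 left out.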

Additional observations from a re-analysis of the deposited data

Results flagged for a closer look

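Within groups of 4 arrays, 3 of the 62 sets of values (30 members and Nfat5, in each group) had an end array far from the other three, where chance gives about 1 in 20. Serping1 read 11.8 (11.76) on AdPl replicate 4, against 11.71 to 11.72 on the other AdPl arrays. Clu read 8.77 on AdPl replicate 1, against 8.80 on the others, in a group whose whole range was very narrow. Cd55 read 7.14 on AdN5 replicate 4, against 7.33 to 7.36 on the other AdN5 arrays, and had a fold change of -0.35 without that array and AdPl replicate 3.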

How the results depend on the processing

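Renewed quantile normalisation, median centring, array weights and every probe set as its own row kept the called members, C7 and C3ar1. With the replicate block 0 members were called in either direction and 14 genes in all. In that limma fit C7 was at -1.07 (adjusted p = 0.0851) and C3ar1 at 0.73 (adjusted p = 0.0897). Over all genes same-numbered arrays did not deviate together (correlations -0.0795 to 0.0547). A pairing that touches few genes could not be seen this way. The labels do not say whether equal numbers pair arrays. With a variance trend and robust estimation 4 members were called lower (C7, Cd55, Clu and Serping1) and 2 higher (C3ar1 and C1qb), among 781 genes. Among genes above the lower quartile 2 members were called higher. Among genes above the median, where C7 and the other dim members were not tested, 2 were called higher, with 497 genes called and a member median of 0.037. An adjusted p under 0.01 left 0 members higher and 42 genes, and a change of at least 1.5-fold left 110 genes. With each array left out in turn, members called higher ranged from 0 to 1, all called genes from 56 to 88, and the member median from -0.061 to 0.0053. Without both AdPl replicate 3 and AdN5 replicate 4, 0 members were called higher among 30 genes and the median was -0.076.

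Signs turned for members close to 0. C8b was at 0.0099 with array weights. Over the fits without one array or without that pair, fold changes ran from -0.12 to 0.035 for C1s1, -0.0052 to 0.098 for C2, -0.033 to 0.099 for C4bp, -0.11 to 0.15 for C5ar1, -0.0027 to 0.17 for C5ar2, -0.092 to 0.065 for C6, -0.10 to 0.029 for C8a, -0.049 to 0.086 for C8b, -0.040 to 0.20 for C8g, -0.017 to 0.13 for Cd59a and -0.0048 to 0.083 for Masp2. In the fit without the pair C5ar1 was at 0.075. The causes were not tested. The limits are the 4 arrays per group and the dim level of 11 members, C7 among them.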
